A study of Mus musculus with 8 samples.

Results

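The cytosolic ribosomal protein genes were followed in ventricles of mice under pressure load. They were found by symbol: every probe set annotated to exactly 1 gene whose symbol is Rpl or Rps, a number and at most 1 letter a, x or l was taken, and where a gene had several, the one with the highest average level across the 8 arrays was kept. The rule found 43 genes of 18193 with such a probe set on the array, 22 of the large subunit (Rpl) and 21 of the small subunit (Rps). It uses annotation and the mean over all arrays, not the difference between the groups. Another 25 genes with symbols of this form lie only on probe sets that list several symbols, mostly those of pseudogenes, and are not among the 43.

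The 8 male mice of the inbred FVB strain, aged 8 to 12 weeks, had all been operated on by ascending aortic banding, a narrowing of the aorta next to the heart, and were examined after 1 week. In 4 of them a CHF1/Hey2 transgene, a repressor of the hairy-related family, was driven by the mlc2v promoter, which acts in heart muscle cells, and 4 were wild type. No unbanded heart was analysed here, so the levels have no unloaded reference. RNA of each ventricle was read on 1 Affymetrix Mouse Genome 430 2.0 array, and the values are log2 expression levels, on which a difference of 1 is a 2-fold change. The labels do not say whether the transgenic mice are of 1 founder line.

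Each ribosome joins a small subunit, which holds the messenger RNA and reads its codons, and a large subunit, which forms the peptide bonds and holds the tunnel through which the new protein leaves. Most ribosomal proteins are present in 1 copy per ribosome, and their genes are among the most highly expressed in nearly every cell. Their messenger RNAs typically begin with a terminal oligopyrimidine tract, a C followed by a run of C and T, through which mTOR signalling controls their translation. Growth of the loaded heart is known to draw on more ribosomes per muscle cell. Because that control acts largely on translation, messenger RNA levels show only part of it.

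The start regions of 9 members are shown because they carry such a tract at or near the annotated start or lack it there. Each line is 50 bases of genome assembly GRCm38.p6 from RefSeq, 35 before the annotated start and 15 from it on. Capitals mark a run from a C within 5 bases of the start, followed by at least 4 bases that are each C or T. The marked run can be the later part of a longer stretch of C and T. Rpl35, Rpl38, Rps6, Rps10, Rps18 and Rpl14 show the run, and among these only that of Rpl38 begins at the annotated first base. In Rpl14 and Rpl35 the stretch of C and T begins further before the start than the capitals, outside the 5 bases. Rpl3l, at both of its starts, and Rpl4 do not, and Rps24 has it at 1 of its 2 annotated starts. The Rpl4 line does hold a run of C and T further before the annotated start, outside the 5 bases.
Rpl14 (chr9:120571482-120571531, plus strand): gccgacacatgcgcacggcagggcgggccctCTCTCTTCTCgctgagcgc
Rpl35 (chr2:39005117-39005166, minus strand): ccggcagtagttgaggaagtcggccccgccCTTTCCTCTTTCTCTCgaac
Rpl38 (chr11:114668545-114668594, plus strand): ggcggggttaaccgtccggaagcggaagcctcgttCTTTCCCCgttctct
Rps6 (chr4:86857353-86857402, minus strand): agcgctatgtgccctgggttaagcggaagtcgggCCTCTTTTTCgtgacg
Rps10 (chr17:27635230-27635279, minus strand): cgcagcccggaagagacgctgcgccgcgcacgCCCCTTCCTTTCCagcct
Rps18 (chr17:33955651-33955700, minus strand): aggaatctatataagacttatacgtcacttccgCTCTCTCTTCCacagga
Rps24 (chr14:24490643-24490692, plus strand): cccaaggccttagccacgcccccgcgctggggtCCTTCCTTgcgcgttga
Rpl4 (chr9:64173352-64173401, plus strand): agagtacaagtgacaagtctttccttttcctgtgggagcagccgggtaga
Rpl3l, first of its 2 starts (chr17:24727791-24727840, plus strand): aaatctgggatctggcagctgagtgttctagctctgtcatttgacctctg

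Promoter windows, from 250 bases before the start to 50 after it, were given for 37 of the 43 members, with 45 windows in all. The pyrimidine run described above was found in 19 of the 45 windows (42.2%), against 18.3% of all 32851 windows. At the annotated first base itself it began in 7 windows (15.6%), against 2.51% of all windows. The letters CCGGAA, the core that factors of the ETS family such as GABP bind, occurred on either strand in 24 of the 45 windows (53.3%), against 14.9% of all. The letters CACGTG and CACGCG, E-box forms that hairy-related repressors can bind, occurred in 5 (11.1%) and 8 (17.8%) windows, against 7.15% and 9.27% of all. A match of letters is a description of these windows only.

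The arrays were not equally alike. In transgenic replicate 2, 3572 of the 9607 genes tested (37.2%) were more than 2-fold away from the other arrays' median. Transgenic replicate 3 had 891 such genes, and the remaining 6 arrays had 72 to 149 each. The excess of the 3 prime over the 5 prime probe set of beta-actin was 0.62 in replicate 2, below the 0.78 to 1.21 of the other 7, and that of Gapdh was -0.27 against -0.28 to -0.11. The heart muscle markers were present throughout, with Myh6 at 15.80 or above, Myl2 at 15.08 or above and Tnni3 at 14.72 or above in every array, while all 7 skeletal muscle markers lay at 3.52 or below. Hey2 was between 5.70 and 6.26 in the arrays labelled transgenic and between 5.68 and 6.76 in wild type (exact two-sided permutation p = 0.771, smallest possible 0.0286). It is unknown if this probe set detects the transgene's message, so it does not check the labels, and the groups are named as labelled.

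The comparison asked whether the CHF1/Hey2 transgene went with another level of ribosomal protein transcripts in the banded ventricle. No gene of either subunit passed the test. Of the 43 members, 39 passed the filter on low values (a log2 value above 5 in at least 4 arrays, whatever their group), 20 of the large and 19 of the small subunit. With limma and Benjamini-Hochberg adjustment at 0.05 over all genes, 0 of these 39 were called, and the background was 0.00% of 9607 genes. With no adjustment, 0 of 39 had a limma p under 0.05, against 1.59% of all genes (1.22% higher and 0.375% lower in the arrays labelled transgenic), and the values of the 2 groups did not overlap for 0 of 39, against 2.48% of all genes. Without transgenic replicate 2 the members at an unadjusted p under 0.05 were again 0 of 39, against 2.41% of all genes. Counts of 0 among 39 are near these backgrounds and set nothing apart.

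The differences themselves were small. Transgenic minus wild type ran from -0.13 (Rpl4) to 0.58 (Rpl3l) over the 39 members, with a median of 0.08, beside a median of 0.06 over all 9607 genes. The group mean was higher in the arrays labelled transgenic for 31 of 39 members (79.5%), against 57.0% of all genes. Without transgenic replicate 2 the median was 0.00 and 21 members were higher (53.8%), against 55.9% of all genes, so the lean toward higher values did not remain without that array. Without transgenic replicate 3 the median was 0.14, beside 0.12 over all genes, and without both it was 0.04, beside 0.05.

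The median reach to either side of the 95% confidence intervals was 0.365 over the members, against 0.606 over all genes, and 0.247 against 0.390 without replicate 2. With all 8 arrays the whole interval lay between -0.5 and 0.5 for 26 of 39 members and 1053 of 9607 genes. Without replicate 2 it lay between -0.5 and 0.5 for 36 of 39 members (92.3%), against 44.9% of all genes. The 3 exceptions without replicate 2 were Rpl3l, Rps4l and Rpl27a, named here after their values were seen. High levels went with narrower intervals in general: of the 613 genes with a wild-type mean above 12, a level chosen after the values were seen, 65.1% had the whole interval between -0.5 and 0.5 without replicate 2, as had all 30 members above that level.

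**Figure D1:**
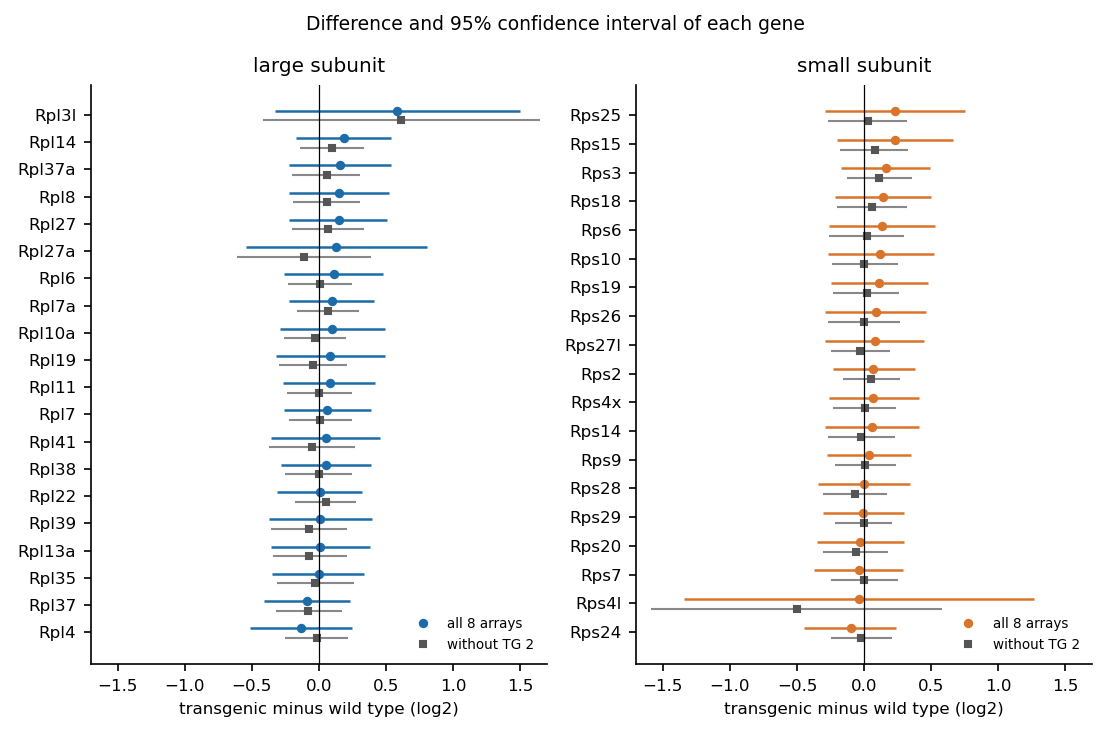
Transgenic minus wild type (log2, horizontal) for the 20 large-subunit and 19 small-subunit genes tested, with limma 95% confidence intervals, over all 8 arrays (coloured circles) and without transgenic replicate 2 (grey squares). Every interval contains 0, and those of Rpl3l and Rps4l are the widest of the 39.

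The medians of the large and the small subunit lay close together in every array. The 20 large-subunit genes had a median difference of 0.08, with 17 higher and 3 lower, and the 19 small-subunit genes a median of 0.07, with 14 higher and 5 lower. Without transgenic replicate 2 both medians were 0.00, with 11 higher and 9 lower in the large subunit and 10 and 9 in the small. Measured from each gene's wild-type mean, the large-subunit median lay at 0.02, 0.32, -0.05 and 0.03 in transgenic replicates 1 to 4. The small-subunit median lay at -0.01, 0.30, -0.07 and 0.06 in the same arrays. In wild-type replicates 1 to 4 the large subunit was at 0.03, 0.02, 0.01 and -0.07 and the small at 0.00, 0.06, 0.00 and -0.02. The large minus small value averaged 0.011 ± 0.023 over the transgenic mice, against -0.011 ± 0.039 over the wild-type mice (SD, n = 4 each). The subunits thus stayed within 0.05 of each other in each of the 8 arrays, including the 2 arrays that stood apart.

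**Figure D2:**
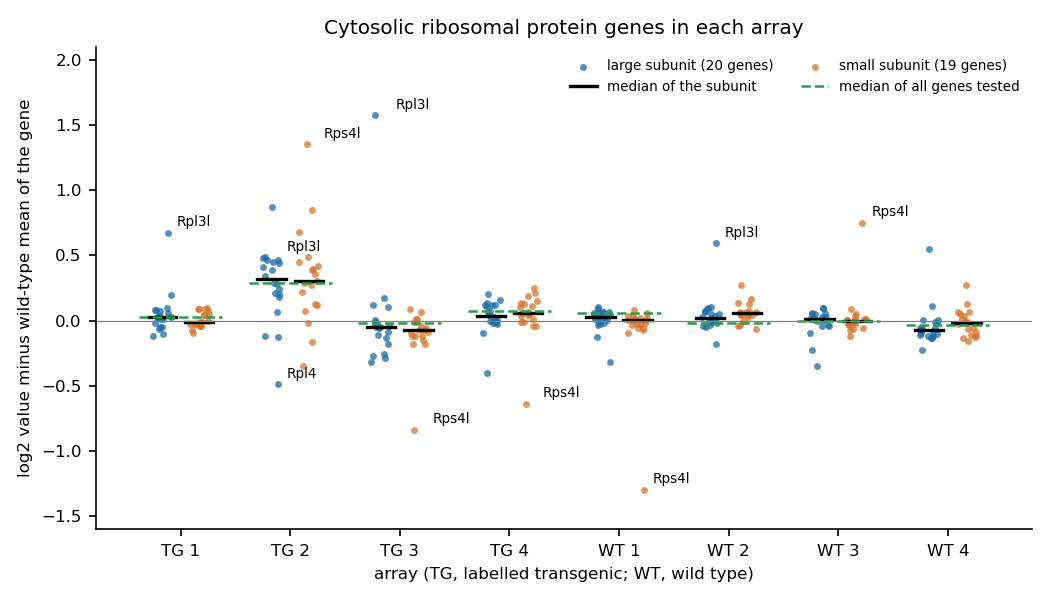
Each point is 1 ribosomal protein gene in 1 array, as its log2 value minus the mean of its 4 wild-type values (vertical), with subunit medians as black bars and the median of all 9607 genes as a dashed line. The subunit medians lie within 0.07 of 0 in 7 arrays and at 0.30 or above in transgenic replicate 2, and Rpl3l, Rps4l and Rpl4 are labelled where they lie over 0.48 from 0.

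Transgenic replicate 2 held the highest value of 31 of 39 members (79.5%), against 46.8% of all genes, and 33 members lay above their wild-type mean there. The members' median was 0.30 in that array, and that of all genes was 0.29. Among genes with a wild-type mean above 12, the median there was 0.28 for the 30 members and 0.08 for all 613 genes, and replicate 2 was the highest array in 80.0% and 36.1% of them. The SD of the deviations in replicate 2 was 0.326 over the members and 1.26 over all genes, and 1 member (2.56%) lay over 2-fold from its wild-type mean, against 38.3% of all genes. Of the same 613 genes, 92 lay over 2-fold away in replicate 2, and 0 of the 30 members did. These shares are descriptions without a test, since genes are not replicates. Some cell type markers also stood off in replicate 2, with medians of 0.82 for 10 endothelial genes and 0.91 for 8 of smooth muscle and pericytes. Fibroblast and heart muscle markers were at -0.02 and -0.06 there. The part of these lists in the members' values was not tested.

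Among the remaining arrays the members were among the steadier transcripts. Over the 7 arrays without transgenic replicate 2, the highest and lowest values of 36 of 39 members lay less than 0.5 apart, against 33.1% of all genes. The median SD over the 4 wild-type mice was 0.076 for members and 0.186 for all genes. Other highly read genes were steadier too. Of the 613 genes with a wild-type mean above 12, 54.8% had such a range, and their median wild-type SD was 0.139. The 12 heart muscle markers were as steady as the members, with 11 in that range and a median wild-type SD of 0.072. Wild-type replicate 4 held the lowest value of 15 members (38.5%), against 11.4% of all genes, although its median over the members was only -0.06. That share was not particular to the members: it was 38.2% for the 76 mitochondrial ribosomal protein genes tested, and 17.8% for the 45 initiation factor genes. The 3 prime control probe set for the RNA of the small subunit was highest in that array, at 6.25 against 5.52 to 5.85 in the other 7. The 5 prime one was highest there too, at 4.6 against 3.97 to 4.33. The middle one was not, at 5.07 against 4.58 to 5.33. The part of this RNA in the low members was not tested.

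Of the 10 genes on the list of the peptide exit tunnel in the large subunit, 6 were tested, 3 higher and 3 lower, with a median difference of 0.00. Without transgenic replicate 2, 1 was higher and 5 were lower, with a median of -0.03. Rpl4, whose protein narrows the tunnel with a long loop, read 14.46, 13.95, 14.38 and 14.43 on the log2 scale in transgenic replicates 1 to 4 and 14.46, 14.51, 14.44 and 14.33 in wild type. Only transgenic replicate 2 stood off, by -0.49 from the wild-type mean, and it lay below all other arrays. The group means of 14.30 ± 0.24 and 14.43 ± 0.08 (SD, n = 4 each) differed by -0.13 (limma adjusted p = 0.815), or by -0.01 without that array.

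Rpl35, which sits at the rim of the tunnel, had 14.16, 14.33, 14.08 and 14.47 against 14.27, 14.28, 14.31 and 14.19, and the groups overlapped fully. Rpl39, which lies within the tunnel, was read at 6.63, 6.98, 6.41 and 6.83 against 6.74, 6.65, 6.71 and 6.69. Its difference was 0.01 with all arrays and -0.07 without replicate 2. Rpl37 was lower by 0.09 on average, at 9.65, 9.65, 9.74 and 9.67 against 9.64, 9.75, 9.79 and 9.88 (limma adjusted p = 0.833). Its deviation in transgenic replicate 2 was -0.12.

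Rpl8, a protein near the peptidyl transferase centre, where peptide bonds form, had 13.09, 13.51, 13.24 and 13.05 in the arrays labelled transgenic and 13.04, 13.17, 13.08 and 12.97 in wild type. The groups overlapped, and the difference of 0.15 (SE 0.162) was 0.06 without replicate 2. Rpl11, which with Rpl5 and a small ribosomal RNA forms the particle that can bind the p53 regulator Mdm2, had 13.10, 13.36, 13.03 and 13.10 against 13.04, 13.16, 13.13 and 12.95. Its difference was 0.08 (SE 0.151; limma adjusted p = 0.864) and 0.00 without replicate 2. Rpl5, Rpl3, Rpl10, Rpl10l and Rpl32 had no probe set with 1 symbol, and neither did Rps27a, the fusion of ubiquitin with a small-subunit protein. They were not analysed here.

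After Rpl3l, the higher large-subunit members with the smallest p were Rpl14, Rpl37a and Rpl8. Rpl14 had 5.66, 5.91, 5.45 and 5.58 against 5.47, 5.42, 5.49 and 5.47, a difference of 0.19 (95% interval -0.17 to 0.54; limma adjusted p = 0.813) that was 0.10 without replicate 2. Transgenic replicate 3 lay below 3 wild-type arrays, and the probe set is close to the filter level. Rpl37a had 14.25, 14.62, 14.10 and 14.27 against 14.24, 14.19, 14.16 and 14.02, a difference of 0.16 that was 0.06 without replicate 2. Rpl38, known for its part in translating Hox messenger RNAs, had 13.93, 14.13, 13.81 and 14.02 against 13.98, 13.91, 13.97 and 13.81. Rpl13a, a common reference gene that also takes part in translational silencing after interferon, had 14.78, 15.04, 14.54 and 14.87 against 14.81, 14.76, 14.89 and 14.72. For Rpl38 and Rpl13a the differences were 0.05 and 0.01, or 0.00 and -0.07 without replicate 2, well inside the spread of the arrays labelled transgenic.

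Rpl27a held the largest deviation of a large-subunit gene in transgenic replicate 2, at 0.87. Its probe set gave 6.53, 7.45, 6.31 and 6.58 against 6.56, 6.40, 6.23 and 7.13, so that 1 array of each group was high. The difference was 0.13 with all arrays and -0.11 without replicate 2. Rpl12, of the stalk base where elongation factors dock, missed the filter with values between 4.50 and 5.45, above 5 in 3 arrays.

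In the small subunit, genes of the head and of the body had like medians. Of 14 head genes 9 were tested, with 7 higher and 2 lower and a median difference of 0.12, and of 15 body and platform genes 8 were tested, with 6 higher and 2 lower and a median of 0.07. Without replicate 2 these medians were 0.02 and 0.00. Rps15, a head protein, had 13.51, 14.10, 13.38 and 13.61 in the arrays labelled transgenic and 13.48, 13.48, 13.43 and 13.30 in wild type. Transgenic replicate 2 was highest by 0.67 above the wild-type mean, and replicate 3 lay below 3 wild-type arrays. The difference was 0.23 (95% interval -0.20 to 0.66; limma adjusted p = 0.813) and 0.08 without replicate 2.

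Rps3, which lines the entry of the messenger RNA channel, had 13.39, 13.60, 13.39 and 13.45 against 13.27, 13.43, 13.31 and 13.18. Of the wild-type arrays only replicate 2 reached into the transgenic range. The difference of 0.16 (SE 0.145; limma adjusted p = 0.813; exact permutation p = 0.0857) was 0.11 without transgenic replicate 2. Rps18, also of the head, differed by 0.14, with 13.48, 13.82, 13.45 and 13.54 against 13.44, 13.60, 13.40 and 13.30, or by 0.06 without that array. Rps19, mutated in Diamond-Blackfan anaemia, lay 0.39 above its wild-type mean in transgenic replicate 2 and had 12.68, 12.55 and 12.65 in transgenic replicates 1, 3 and 4, against 12.55, 12.68, 12.70 and 12.50 in wild type. The groups overlapped, and its difference of 0.11 was 0.02 without replicate 2.

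Rps25, needed for initiation at several viral internal entry sites, had 6.30, 7.24, 6.32 and 6.64 against 6.30, 6.42, 6.33 and 6.52. Transgenic replicate 2 lay 0.84 above the wild-type mean, and the difference of 0.23 was 0.03 without it. Rps20 had 14.65, 14.77, 14.51 and 14.73 against 14.66, 14.63, 14.74 and 14.74, a difference of -0.03. Rps29, chosen after its values were seen, had a range of 0.08 over the 8 arrays, from 15.33 to 15.41.

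Rps6, the substrate of S6 kinase downstream of mTOR, had 7.93, 8.41, 7.84 and 8.17 against 7.97, 8.00, 7.84 and 8.02. Another 9 probe sets list Rps6 beside other symbols and are not in these values. Transgenic replicates 2 and 4 were above every wild-type array and replicates 1 and 3 were not. The difference was 0.13 (SE 0.174; limma adjusted p = 0.816), or 0.02 without replicate 2. Rps4x, of the body, had 13.90, 14.07, 13.73 and 13.79 against 13.82, 13.84, 13.80 and 13.74, a difference of 0.07 that was 0.01 without that array. Rps7 had 14.00, 13.88, 13.95 and 14.18 against 13.97, 14.11, 14.02 and 14.08, and Rps24 had 14.18, 13.86, 14.09 and 14.27 against 14.21, 14.17, 14.22 and 14.22. Both were lowest in transgenic replicate 2, where most members were highest. Their differences of -0.04 and -0.10 were 0.00 and -0.02 without it.

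The widest spread over the 8 arrays among the 39 was that of Rps4l and Rpl3l, both on the list of tissue-specific paralogues, of which 5 of 8 were tested, 3 higher and 2 lower. Rpl3l replaces Rpl3 in part of the ribosomes of heart and skeletal muscle. It read 11.29, 11.10, 12.19 and 10.21 in transgenic replicates 1 to 4 and 10.30, 11.21, 10.39 and 10.56 in wild type. Replicate 3 held the highest value and replicate 4 the lowest, so the arrays labelled transgenic spanned the whole range, and wild-type replicate 2 lay among the higher ones. The means of 11.20 ± 0.81 and 10.61 ± 0.41 (SD, n = 4 each) differed by 0.58 (95% interval -0.33 to 1.5; limma adjusted p = 0.813; exact permutation p = 0.343). Without transgenic replicate 3 it was 0.25, without replicates 2 and 3 0.13, and without replicate 4 0.91.

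In transgenic replicate 3, Rpl3l lay 1.58 above its wild-type mean, where the median over the 39 members was -0.06. Other lists stood off in that array as well. Fibroblast markers, all 10 of them tested, had a median of -0.81 there and between -0.22 and 0.10 in the other 7 arrays. Their summed linear level ranged from 31.1 to 115 in units of 1000 in the arrays labelled transgenic and from 105 to 121 in wild type. The 11 macrophage markers were at -1.06, with sums of 8.45 to 30.3 against 12.9 to 23.3. Proliferation markers, 6 of 9 tested, were at -1.67, with sums of 0.237 to 0.998 against 0.441 to 1.55. These 2 lists also varied elsewhere. In the other 7 arrays the macrophage median lay between -0.39 and 0.98, the latter in transgenic replicate 2. The proliferation median lay between -1.01 and 1.04 there, both in wild-type arrays. Atrial muscle markers, 5 of 6 tested, had medians of 0.08, 0.87, 0.86 and 0.65 in transgenic replicates 1 to 4 and 0.36, -0.33, -0.21 and 0.06 in wild type, with sums of 14.1 to 43.4 against 29.0 to 42.6. Their median difference was 0.64, and 2 had an unadjusted limma p under 0.05 with 0 called. Nppa weighs most in the sums of this list. It was at 12.96 in replicate 3 and at 14.66 or above in every other array, against the direction of the list's median. Heart muscle markers, 12 of 12 tested, were at 0.05 in replicate 3. In bulk tissue, fewer cells of a type and less RNA per cell cannot be told apart, and the part of these lists in the level of Rpl3l was not tested.

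Rps4l, a close relative of Rps4x, had 6.62, 8.01, 5.82 and 6.02 against 5.36, 6.93, 7.41 and 6.93. Its lowest value was in wild-type replicate 1 and its highest in transgenic replicate 2, a range of 2.65 over the 8 arrays. The means were 6.62 ± 0.99 and 6.66 ± 0.90 (SD, n = 4 each), and the difference of -0.04 (95% interval -1.34 to 1.27) was -0.50 without transgenic replicate 2. Rps27l, a relative of Rps27 that p53 induces, was as even as the common members, with 11.62, 12.05, 11.54 and 11.64 against 11.65, 11.67, 11.57 and 11.63. Its difference of 0.08 was -0.03 without replicate 2.

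Rpl39l, a relative of Rpl39 best known from the testis, missed the filter with values between 2.81 and 3.02. Rps27 and Rps16 missed it as well, at 3.07 to 3.27 and 2.01 to 2.1. Both encode constitutive proteins of the small subunit, and their other probe sets list several symbols, so these low values describe single probe sets. The low readings of Rpl14, Rpl27a, Rpl39, Rps6 and Rps25 also describe single probe sets, and these genes too are on probe sets that list several symbols. Each probe set has its own response, so a higher value for one gene than another is no higher transcript level.

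**Figure D3:**
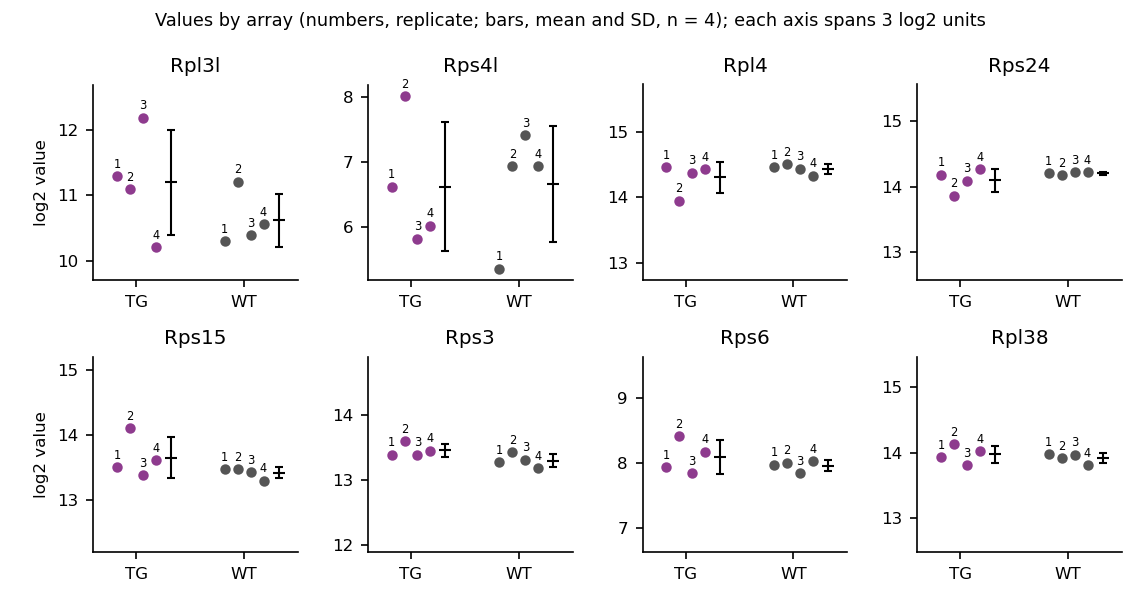
Log2 values of 8 members in the 4 arrays labelled transgenic (TG) and the 4 wild-type arrays (WT), numbered by replicate, with mean and SD beside them; each vertical axis spans 3 log2 units. Rpl3l and Rps4l spread over about 2 units or more, whereas Rpl38, Rps3 and Rps24 stay within 0.42.

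Ribosomal protein genes have many processed pseudogenes, so their probe sets can bind RNA of several loci. Of the 43 chosen probe sets, 16 carry the suffix _x_at or _s_at, which Affymetrix gives to probe sets that match more than 1 transcript. The 96 member probe sets included 77 that passed the filter, and 19 genes had several of these. Within a gene their differences between the groups lay a median of 0.10 apart, and the signs were mixed in 4 of the 19 genes, Rpl22, Rpl35, Rps29 and Rps7. Over the 77 probe sets the median difference was 0.07.

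Rps24 was the gene whose probe sets lay furthest apart. Its 5 probe sets above the filter differed by -0.67 to -0.10 between the groups, and by -0.21 to -0.01 without replicate 2. In transgenic replicate 2 all 5 were below the wild-type mean, by 0.34 for the chosen probe set and by 2.05 for the probe set with the lowest level, at a mean of 6.83. Rps24 messages are known to be spliced into forms with different 3 prime ends, and the files do not say which form each probe set reads. For Rps3 the lower probe set, at 6.0, deviated by 1.19 in that array where the chosen one deviated by 0.30.

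**Figure D4:**
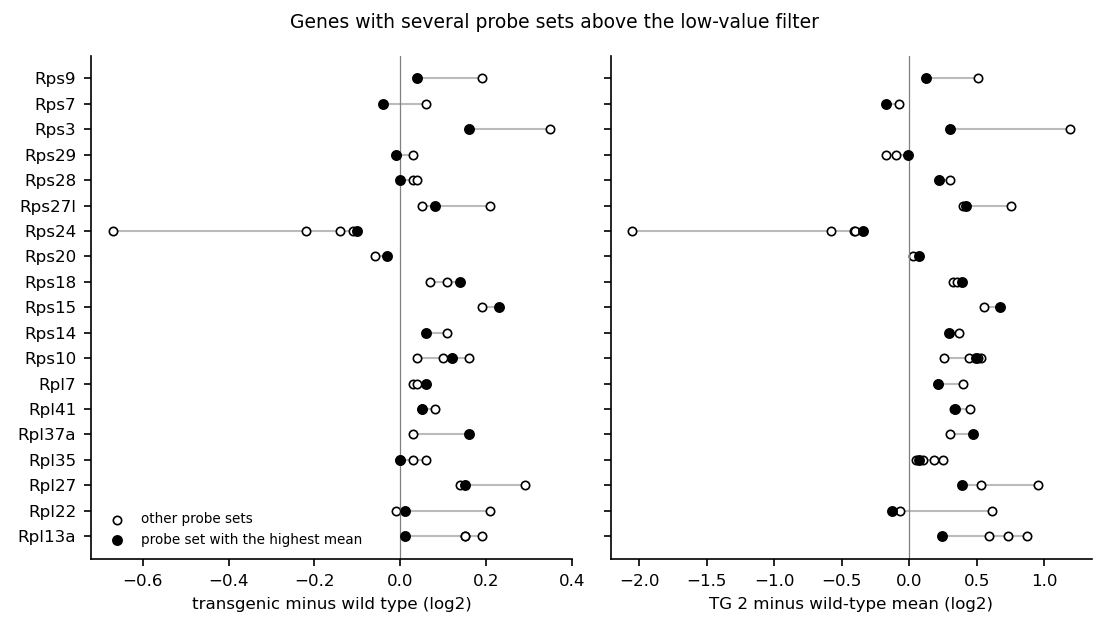
For the 19 genes with several probe sets above the filter, the difference between the groups (left, log2) and the deviation of transgenic replicate 2 from the wild-type mean (right, log2) are shown for each probe set, with the chosen one filled. On the left those of Rps24 lie furthest apart, down to -0.67, and on the right those of Rps24 (-2.05 to -0.34), Rps3 (0.30 to 1.19), Rpl22 (-0.13 to 0.61) and Rpl13a (0.24 to 0.87) are spread.

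The genes that the rule could not name had small differences too. Of 108 probe sets that list 1 symbol of the rule beside others, 89 passed the filter and stood for 38 symbols, 15 of the 43 members being among all symbols so listed. In a fit with these rows added, 0 of the 89 were called by limma and 0 had an unadjusted p under 0.05. Their median difference was 0.05 (0.02 without replicate 2), with 59 higher and a range from -0.56 to 0.28. Their median in transgenic replicate 2 was 0.16, beside 0.30 for the members.

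Other genes of the ribosome and of translation are given from lists made by function. The genes named from each list are those with its smallest p, not examples picked for what they do. Ribosomal proteins outside the symbol rule had 6 of 7 tested members higher, with a median of 0.06, or 4 of 7 and 0.01 without replicate 2. Among them Fau, a ubiquitin-like fusion with a small-subunit protein, differed by 0.11 (-0.05 without replicate 2) and Rpl7l1 by 0.28 (0.16 without it). The list of elongation and termination factors had 8 of 11 higher (72.7%, against 57.0% of all genes), with a median of 0.09, and both were the same without replicate 2. On that list Eef1d differed by 0.23 and Eef1e1, an elongation factor by name only, by 0.31 (0.10 and 0.25 without replicate 2). Genes of mTOR signalling and of the control of oligopyrimidine messages were higher in 12 of 25, with a median of 0.00 (0.10 without replicate 2). The smallest p among them were those of Mlst8, a subunit of the mTOR complexes, at 0.40, and Tsc2, which restrains mTOR, also at 0.40, or 0.21 and 0.17 without replicate 2. The limma adjusted p of each gene named in this paragraph was 0.813 or more.

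Ribosome biogenesis genes were higher in 28 of 42 (66.7%, against 57.0% of all genes), with a median of 0.10. Without transgenic replicate 2, 31 were higher (73.8%, against 55.9%) and the median was again 0.10, beside 0.03 over all genes. By limma 0 were called, with 2 at an unadjusted p under 0.05 against 1.59% of all genes. Bysl, which is needed to mature the small subunit, had 8.38, 9.22, 8.60 and 8.46 in the arrays labelled transgenic and 8.08, 8.33, 7.83 and 7.83 in wild type. All 4 transgenic values lay above the wild-type ones, in 1 of the 42 genes, where 2.48% of all genes had groups apart. The difference was 0.65 (SE 0.230; limma adjusted p = 0.813; exact permutation p = 0.0286, the smallest possible), or 0.46 without replicate 2. Imp3, a part of the particle that processes the precursor of ribosomal RNA, had 9.17, 9.70, 9.17 and 8.92 against 8.81, 8.96, 8.67 and 8.64, a difference of 0.47 that was 0.32 without that array. Bysl and Imp3 were named because their p was the smallest among the 42, so these p-values were selected on the same values. Neither gene passed over all genes.

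Mitochondrial ribosomal protein genes, which serve the separate ribosomes of mitochondria, had larger differences than the cytosolic ones, with no test between the lists. Of 76 tested, 72 were higher (57.0% of all genes were), with a median difference of 0.36, or 75 and 0.23 without replicate 2. By limma 0 were called and 2 had an unadjusted p under 0.05, against 1.59% of all genes, and 5 had groups apart, against 2.48%. Their medians in transgenic replicates 1 to 4 were 0.16, 0.72, 0.55 and 0.02, where those of the cytosolic members were 0.02, 0.30, -0.06 and 0.04. The atrial markers described above were also high in replicates 2 and 3. They were high in replicate 4 as well, at 0.65, where the mitochondrial ribosomal genes were at 0.02. The part of the atrial markers in these values was not tested. Without replicates 2 and 3 the median differences of the mitochondrial and cytosolic genes were 0.09 and 0.04. The 45 initiation factor genes had 27 higher and a median difference of 0.08, or 26 and 0.03 without replicate 2. All of these lists share the same 8 arrays.

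**Figure D5:**
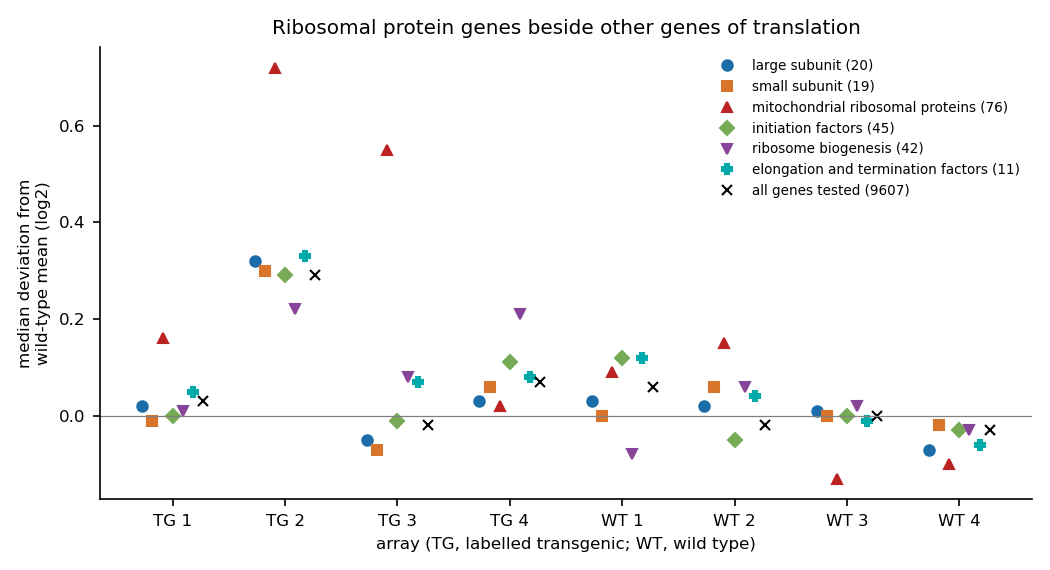
Median deviation from the wild-type mean (log2, vertical) of each list in each array, with the number of genes tested in brackets. Both cytosolic subunits stay near the median of all genes in every array, while mitochondrial ribosomal protein genes reach 0.72 and 0.55 in transgenic replicates 2 and 3.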

How the data were processed

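The authors deposited log2 expression values, 1 column per array, made with GCRMA per the submitters' processing notes. That method adjusts probe background by base composition, normalizes arrays by quantiles and summarizes each probe set. Per the labels, 2 ug of total RNA was labelled for each array. Of 45101 probe sets, 34958 had 1 symbol, 932 several and 9211 no row in the platform annotation. Entrez identifiers matched the RefSeq gene table for 34754, and 0 symbols changed. Control probe sets were left out, and 9607 genes remained after the filter. Transgenic and wild-type arrays were compared by a linear model (limma 3.58.1, R 4.3.3; moderated variance, all 8 arrays, no block), adjusted over all genes, and the fit was tested on simulated data. A single gene's exact test permutes its 8 values two-sided. Precision is limited by the number of arrays, 1 per mouse. The members and lists were chosen with earlier results of these data known. Named genes were a fixed panel of 18 and the 4 smallest p per subunit and direction. The 3 members furthest from the wild-type mean each way in the most deviant array were named too, as were members that missed the filter. From each context list, up to 2 genes with the smallest p were named. Alternatives changed the filter, scaling, model, probe set rule, threshold and arrays. The 2 added after seeing the data used every passing member probe set, or those listing several symbols.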

Additional observations from a re-analysis of the deposited data

Results flagged for a closer look

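In 2 groups of 4, 1 array lay far from the other 3 for a named member. Rpl4 was lowest in transgenic replicate 2, at 13.95, and the remaining transgenic replicates were at 14.38 or above. Rps24 was lowest of its group in wild-type replicate 2, at 14.17, and the 4 wild-type values lay within 0.05 of each other. Over all 39 members tested, 5 of 78 groups had an array apart by this measure, 2 of them through transgenic replicate 2, where chance gives about 1 in 20.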

How the results depend on the processing

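Members called stayed at 0 in the 20 alternatives. Genes called over all genes stayed at 0 except with array weights, where 1 passed. Same-numbered arrays were not paired (correlations of deviations 0.296, -0.006, -0.334 and 0.2; 3 of 8 arrays matched their own number best), and a replicate block called 0 genes and 0 members. The members' median difference of 0.076 lay between 0.0038 and 0.138 when single arrays were left out and between 0.04 and 0.095 otherwise. Large minus small, 0.0066, lay between -0.013 and 0.016, and between -0.0073 and 0.025.

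Of 24 named members tested, 13 changed sign under some alternative. With arrays centred on their median, Rpl39 was at -0.010 and Rpl13a at -0.014. With array weights, Rpl39 was at -0.048, Rps6 at -0.00013, Rpl13a at -0.0067, Rps25 at -0.075, Rpl4 at 0.037 and Rpl27a at -0.150. Rpl35 and Rps7 were at 0.019 and 0.0071 with the mean of probe sets, at 0.060 and 0.056 without _x_at and _s_at probe sets, and at 0.00091 and 0.056 with the lowest probe set. Without transgenic replicates 2 and 3, Rps27l was at -0.00058, Rpl8 at -0.00021, Rpl4 at 0.0081, Rpl35 at 0.050, Rps24 at 0.022, Rps7 at 0.048 and Rpl27a at -0.028. Over the single arrays left out, Rpl35 ranged from -0.070 to 0.058, Rpl39 from -0.075 to 0.116, Rps27l from -0.030 to 0.138, Rpl13a from -0.066 to 0.101, Rps20 from -0.064 to 0.022, Rps4l from -0.502 to 0.229 and Rpl27a from -0.110 to 0.318. The cause of these changes was not tested. Probe sets with little signal above background, such as those of Rpl14 and Rpl12, limit what their differences can show.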
